A study of Mus musculus with 28 samples.

Results

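The chemokine system of mice that express human APOBEC3B (A3B) was measured as a set of genes chosen by symbol. These were all genes whose symbol starts with Ccl, Cxcl, Cx3cl, Xcl, Ccr, Cxcr, Cx3cr or Xcr and a digit. Symbols with -ps, which mark pseudogenes, were left out, while Cxcl11, annotated as a polymorphic pseudogene, stayed in. The rule found 59 of 35928 gene symbols (40 ligands and 19 receptors) in the 16 libraries quantified with kallisto, and 58 of 24845 rows in a separate table of TPM values for 12 further libraries. RNA was sequenced from liver and pancreas of 9 mice in the kallisto set, and from liver and lung of 10 other mice in the TPM-table set. The comparison asks which of these genes differed between A3B and control tissue while the transgene was on.

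A3B mice carried tetO-A3B-tGFP, a fusion of the human gene to turboGFP in the ColA1 locus, together with CAGs-rtTA3, a driver that is active in nearly all cells, so that doxycycline switches the fusion on throughout the body. Controls are labelled as carrying A3B without the driver, with the exceptions given below. All food held 625 ppm doxycycline by the labels, and mice were 4 weeks old when it started. In the kallisto set, 6 A3B livers (mice 44, 137, 49, 125, 48, 153) and 6 A3B pancreases (44, 53, 49, 125, 137, 153) were set against 2 control livers and 2 control pancreases, both from mice 45 and 168, all after 10 days by the labels. In the TPM-table set, 3 A3B livers (23 and 28 after 14 days, 70 after 10 days) were set against control livers 11, 91 and 92, and 3 A3B lungs (69, 70, 74, after 10 days) against control lungs 87, 88 and 91, with 15 days given for every control. Groups were taken from the sample titles. The genotype labels go against them in the pancreas, where A3B mice 44 and 137 are given as A3B alone and controls 45 and 168 as A3B + CAGS-rtTA. Control liver 11 is labelled A3B + CAGS-rtTA and control lung 87 carries the driver alone, and the study's mouse list gives several of these controls no doxycycline or a shorter course than the labels do. For controls 45 and 168 that list gives 10 days, as the labels do, and the study's methods say that control littermates received doxycycline. A legend of the study, however, calls the 2 controls animals without doxycycline, so whether they received it is uncertain. If they did not, the drug and the transgene cannot be told apart in that set. In the TPM-table set the labelled days differ between A3B and controls, so there the course of doxycycline and the transgene cannot be told apart either. Nothing says that libraries of one mouse were made separately, so each p-value measures the spread between mice within a group.

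Chemokines are small secreted proteins that bind G protein-coupled receptors on leukocytes and steer them along a concentration gradient. Inflammatory chemokines are switched on in stressed or infected tissue by NF-κB and interferon signalling, while homeostatic ones are made all the time and hold lymphocytes and stem cells in place. In liver, hepatocytes, stellate cells, endothelium and Kupffer cells all make chemokines, and in pancreas the fibroblasts and macrophages are well-known sources.

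The kallisto libraries held 65161064 to 118976013 estimated counts. Depth-scaled values below are counts per 1000000 with edgeR's trimmed-mean (TMM) factors, written CPM, and levels compared between genes are TPM, which is per transcript length. In the TPM table, human APOBEC3B was at 705, 1585 and 1705 TPM in the A3B livers and at most 0.144 TPM in the control livers, and at 90.6, 115 and 281 TPM in the A3B lungs and at most 0.526 TPM in the control lungs. The labelled tissues showed their defining genes. In the kallisto livers the summed CPM of 8 hepatocyte genes was 37251 to 99648 in A3B and 150527 and 218443 in controls. Most of it was Alb (24880 to 58657 CPM in A3B, 103758 and 172635 CPM in controls), the log2 fold changes of the 8 ran from -2.18 (Cyp2e1) to 0.48 (Pck1), and 0 of the 8 passed. In the TPM-table livers these genes summed to 6117 to 11577 TPM in A3B and 10785 to 12117 TPM in controls, which overlap, and 1 of the 8 passed (Serpina1c, -1.72, limma adjusted p = 0.0414). In lung the sums of 5 lung epithelium genes overlapped as well. Of the 5, Sftpc was called lower (-0.33, limma adjusted p = 0.0236), and Scgb1a1 and Ager were lower without overlap but did not pass. Sftpa1 was higher without overlap and did not pass, and Sftpb overlapped. Hepatocyte genes summed to 1275 and 855 TPM in A3B lungs 70 and 74 and 832 TPM in control lung 88, against 44.0 to 81.9 TPM in the other 3. A3B lung 70 also had 144 TPM of 4 genes of lymph node or fat (3.76 to 9.38 TPM in the others). In pancreas the summed CPM of 8 acinar genes was 729998 or more in the controls and 26874 to 83560 in A3B, with TMM factors of 0.210 and 0.443 against 1.30 to 1.79. Some libraries stood apart in leukocyte genes. Control pancreas 168 had 202.8 CPM of 4 B cell genes against 3.83 in control 45, A3B pancreas 49 had 58.7, and control 45 was low in pan-leukocyte genes (17.7 CPM, 235 in control 168 and 198 to 411 in A3B) and monocyte genes (25.1 CPM, 290 in control 168 and 125 to 342 in A3B). A3B liver 49 was the highest kallisto liver in macrophage (869 CPM, 460 and 472 in controls), monocyte (129 CPM, 6.28 and 10.6), neutrophil (39.7 CPM, 3.73 and 4.06) and pan-leukocyte genes (178 CPM, 53.6 and 58.2), and the lowest in hepatocyte genes. A3B liver 48 was the lowest of all kallisto livers in macrophage (36.6 CPM, 233 or more in the others), endothelial (17.7 CPM, 93.4 or more) and pan-leukocyte genes (11.3 CPM, 41.1 or more), and in the TPM table A3B liver 28 had 123 TPM of 6 neutrophil genes (10.7 to 22.8 in controls), nearly all S100a8 and S100a9 (70.1 and 43.7 TPM), while Ly6g of that list was at 2.85 to 5.66 TPM in the A3B livers and 7.58 to 14.8 TPM in the controls. The same liver had 144 TPM of 4 monocyte genes (11.7 to 29.1 in the other livers). In bulk tissue, more cells of a type and more RNA per cell cannot be told apart.

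Promoters were searched for all members. Of the 59 members, 42 had an entry in the RefSeq promoter table (GRCm38.p6, 250 bases before to 50 bases after the start). An NF-κB-like motif, GGGANNTTCC on either strand, was in 6 of the 42 and in 1.43% of all 27025 promoters. An interferon-response-like motif, GAAANNGAAA on either strand, was in 3 of the 42 (Ccl19, Cxcl10 and Cxcl14) and in 3.49% of all. Of the called members of liver and pancreas named below, Cxcl1, Cxcl3 and Ccl1 had a match, Ccl28, Ccl12, Ccl8, Ccl9, Ccl25, Ccl27a and Cx3cr1 had an entry with neither motif, and Cxcl16 and Cxcl17 had no entry. Windows of 26 bases around the matches are shown for these 3 and for Cxcl2 and Cxcl10, which were not called in either tissue by edgeR, read on the gene's strand, with the motif in capitals; the other member with an NF-κB-like match was Ccr3. In Cxcl1, Cxcl2, Cxcl3 and Ccl1 the motif also matched on the opposite strand, shifted by 1 base, so both matches overlap.
Cxcl1 NF-κB-like (chr5:90891166-90891191, plus strand): tgtactccGGGAATTTCCctggcccg
Cxcl2 NF-κB-like (chr5:90903794-90903819, plus strand): tgagctcaGGGAATTTCCctggtccc
Cxcl3 NF-κB-like (chr5:90786020-90786045, plus strand): gctgcgggGGGAATTTCCccagcccg
Cxcl10 NF-κB-like (chr5:92349031-92349056, minus strand): aggggagaGGGAAATTCCaagttcat
Cxcl10 interferon-response-like (chr5:92349085-92349110, minus strand): acgctttgGAAAGTGAAActtacctc
Ccl1 NF-κB-like (chr11:82179991-82180016, minus strand): tgcacttgGGGAAGTTCCcaaggcca
The 10 capital letters are identical in Cxcl1, Cxcl2 and Cxcl3, which all lie on chromosome 5. A match describes these letters and is no evidence that a factor binds there.

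Shares of all ligand TPM were taken within each set, since Cxcl10, Ccl6, Ccl21a, Cxcl17 and other ligands were listed at 0 throughout the TPM table and the shares of the 2 sets do not cover the same genes. In control livers of the kallisto set, Cxcl12, the homeostatic ligand of CXCR4, made up 50.9% on average, followed by Ccl9, a myeloid CC ligand, at 26.1% and 27.5%. In the A3B livers the mean share of Cxcl12 was 24.8% (range 5.52% to 39.8%) and that of Cxcl10 18.4% (3.07% to 47.8%). In the TPM-table livers Ccl9 led in controls with 67.5% (55.1% to 74.7%), while in A3B the shares of Ccl9 (32.8%, range 22.0% to 47.8%) and Cxcl1 (29.3%, range 15.7% to 47.3%) overlapped. A3B pancreas was led by Ccl6 (mean share 32.3%, range 20.1% to 40.3%). The 2 control pancreases had no common order, with Ccl27a at 24.6% in one and 3.97% in the other. Lung was led by Cxcl15, also called lungkine and made by airway epithelium, at 45.7% in controls (42.8% to 47.7%) and 37.2% in A3B (33.2% to 41.4%). The transcripts of Cxcl12 also had different shares of the gene's TPM. Transcript Cxcl12-203 gave 48.7% to 61.0% in A3B livers, 51.6% and 56.4% in control livers, 4.13% to 8.98% in A3B pancreases, and 13.5% and 45.0% in control pancreases. Transcript Cxcl12-202 gave 25.04% to 42.0% in A3B livers, 33.7% and 40.8% in control livers, 76.3% to 89.1% in A3B pancreases, and 38.1% and 64.5% in control pancreases. Cxcl12-202 thus led in every A3B pancreas, while the control pancreases were divided.

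**Figure D1:**
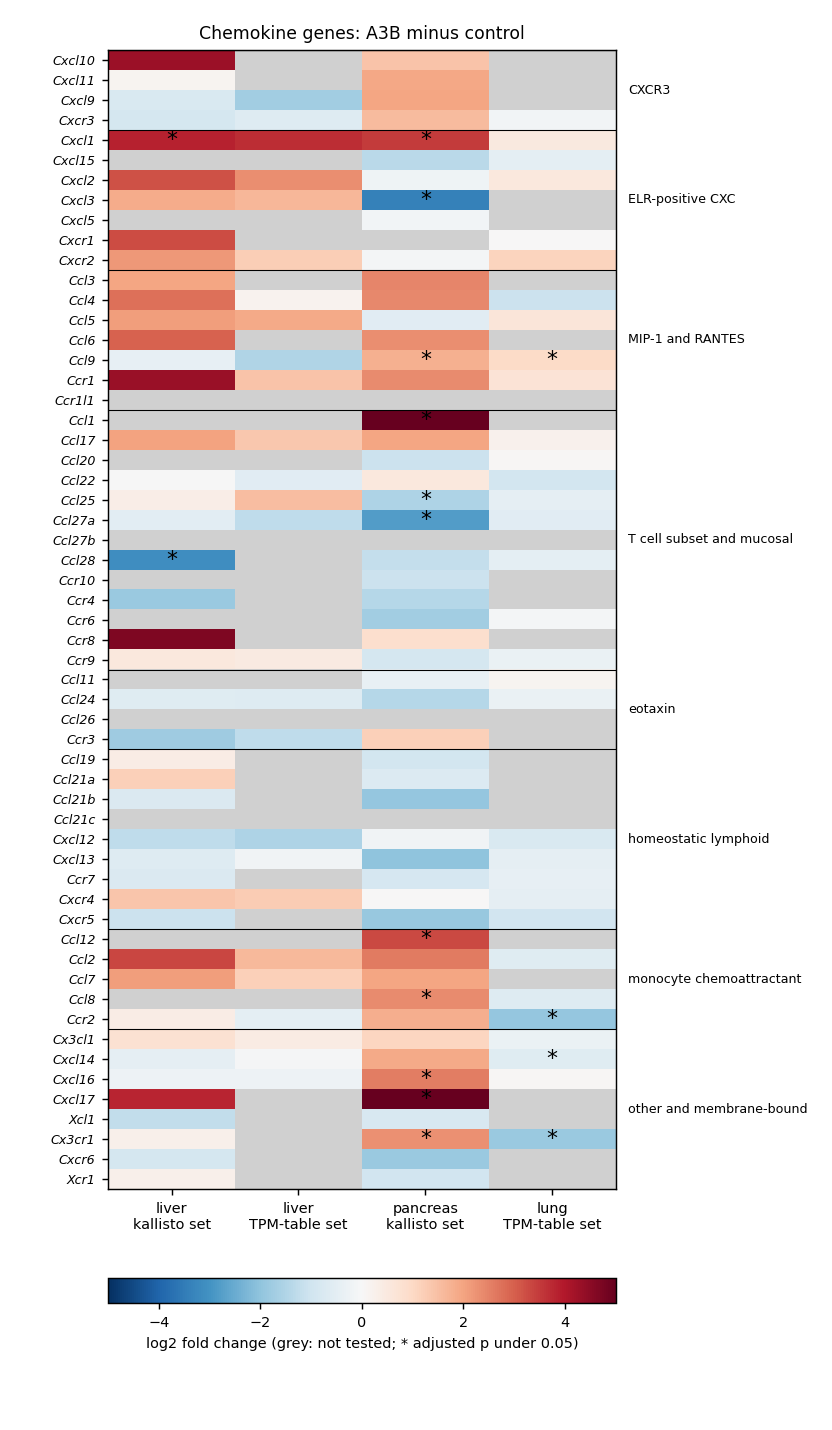
Log2 fold change (A3B minus control) of 57 members, ordered by receptor class, in the 4 comparisons (columns: liver and pancreas of the kallisto set by edgeR, liver and lung of the TPM-table set by limma). Red is higher in A3B, blue lower, grey not tested, and stars mark an adjusted p under 0.05; 11 stars are in pancreas, 4 in lung, 2 in the kallisto liver and 0 in the TPM-table liver.

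In A3B liver of the kallisto set, 45 of the 59 members had enough counts to be tested. The neutrophil attractant Cxcl1 rose and the mucosal ligand Ccl28 fell, and these were the 2 members that passed edgeR's quasi-likelihood test at an adjusted p of 0.05. That is 1 of 45 higher, where 1.25% of all 17376 genes tested were called higher, and 1 of 45 lower, where 2.41% were called lower (3.66% in either direction). DESeq2 called 9 members, these 2 and Cxcl10, Cxcl12, Cxcl2, Ccl6, Ccr1, Cxcr2 and Ccl2, where it called 14.1% of all genes. The part of the lower hepatocyte sum of A3B livers, mostly Alb, in these values was not tested. The median log2 fold change was 0.33 over the members (0.26 with Ccr8, whose controls both had 0 counts, at its lower bound) and 0.21 over all genes. The A3B values lay above both controls in 9 members (15.0% of all genes did so) and below both in 4 (12.9%).

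Cxcl1 binds CXCR2 and draws neutrophils out of the blood. It stood at 9.92, 18.6, 12.9, 7.17, 44.8 and 16.2 CPM in A3B livers 44, 137, 49, 125, 48 and 153, and at 1.45 and 1.06 CPM in control livers 45 and 168. The groups did not overlap, and A3B liver 48, the library low in macrophage, endothelial and leukocyte genes, was the highest. The log2 fold change was 3.87 ± 0.78 (SE; edgeR adjusted p = 0.0303). It kept its direction but lost the call without A3B liver 44 or 137 (adjusted p = 0.0520 and 0.0666) and without control 45 or 168 (adjusted p = 0.220 and 0.286). Cxcl2, a close relative of Cxcl1, ranged from 0.101 to 1.05 CPM in A3B (median 0.282) and was at 0.0210 and 0.0621 CPM in controls, without overlap (log2 fold change 3.18 ± 1.09, edgeR adjusted p = 0.127; DESeq2 adjusted p = 0.0263). The receptor Cxcr2 ranged from 0.776 to 2.38 CPM against 0.440 and 0.149 CPM, also without overlap (2.18 ± 0.76, edgeR adjusted p = 0.130). The summed CPM of 6 neutrophil marker genes was 4.23 to 39.7 in A3B and 3.73 and 4.06 in controls. Its part in the Cxcr2 values was not tested.

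Ccl28, an epithelial ligand of CCR3 and CCR10, stood at 0.665, 0.628, 0.216, 0.605, 0.399 and 0.326 CPM in A3B livers 44, 137, 49, 125, 48 and 153, and at 3.65 and 4.60 CPM in control livers 45 and 168. Every A3B liver was below both controls. Ccl28 fell by 3.12 ± 0.50 on the log2 scale (edgeR adjusted p = 0.0146). Without control 45 or 168 the adjusted p was 0.0812 and 0.137. Its level was low in both groups, 0.188 TPM in A3B and 1.22 TPM in controls on average. In the TPM-table livers it was below the filter, at 0.110 to 0.556 TPM in A3B and 0.179 to 0.368 TPM in controls, where the groups overlapped.

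Of the 3 interferon-inducible ligands of CXCR3, which guide activated T and NK cells, none passed in liver. Cxcl10 stood at 49.1, 10.4, 90.2, 74.9, 5.81 and 12.3 CPM in A3B livers 44, 137, 49, 125, 48 and 153, and at 2.55 and 1.63 CPM in control livers 45 and 168. All A3B livers were above both controls, and they differed widely among themselves, with A3B liver 48 the lowest. The log2 fold change of 4.27 ± 1.25 did not pass (edgeR adjusted p = 0.0875; 0.0449 without A3B liver 48; DESeq2 adjusted p = 0.000176). Cxcl9 stood at 2.68 to 19.0 CPM in A3B (median 5.68) and at 13.8 and 11.6 CPM in controls (log2 fold change -0.78 ± 0.66, edgeR adjusted p = 0.512). Only A3B liver 49, the library high in macrophage, monocyte and neutrophil genes, exceeded the controls. The ratio of Cxcl10 to Cxcl9 TPM was 0.406 and 0.362 in control livers and 2.67 to 46.4 in A3B livers. Cxcl11, annotated as a polymorphic pseudogene, ranged from 0.477 to 4.30 CPM in A3B and was at 2.40 and 0.994 CPM in controls. Cxcl10 shares exon bases with Art3 on the opposite strand.

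Among the attractants of monocytes and macrophages, no member passed in this liver set. Ccl2, the main ligand of CCR2, ranged from 0.214 to 11.7 CPM in A3B (median 1.19) and was at 0.335 and 0.199 CPM in controls (log2 fold change 3.35 ± 1.61, edgeR adjusted p = 0.2497; DESeq2 adjusted p = 0.0463). A3B liver 49 held the highest value, and A3B liver 48 lay between the controls. Ccl9 had 212 CPM in A3B liver 49, 28.5 to 44.4 CPM in the other 5 A3B livers and 84.1 and 84.6 CPM in controls. Its log2 fold change was -0.40 ± 0.76 (edgeR adjusted p = 0.792), and without liver 49 it was -1.36 with an adjusted p of 0.0133. Scaling by library totals moved the median of all genes from 0.21 to 0.68 and turned the sign of Ccl9 (0.18).

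Cxcl12, the ligand with the highest mean share of ligand TPM in both groups of this set, stood at 146, 133, 97.0, 92.2, 218 and 254 CPM in A3B livers 44, 137, 49, 125, 48 and 153, and at 387 and 365 CPM in control livers 45 and 168. The groups did not overlap, with every A3B liver lower. The log2 fold change of -1.26 ± 0.40 did not pass (edgeR adjusted p = 0.107; DESeq2 adjusted p = 0.0302). The summed CPM of 4 endothelial genes was 17.7 to 149 in A3B and 135 and 176 in controls. Their part in the Cxcl12 values was not tested. The other leading members of their classes overlapped between the groups: Cxcl16, a ligand of CXCR6 (log2 fold change -0.25, and 0.32 with library totals), was at 1.496 to 28.7 CPM against 11.8 and 11.97 CPM, Ccl24, an eotaxin, at 0.256 to 2.02 CPM against 1.55 and 2.80 CPM, and Ccl27a at 2.10 to 13.6 CPM against 6.55 and 6.84 CPM.

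**Figure D2:**
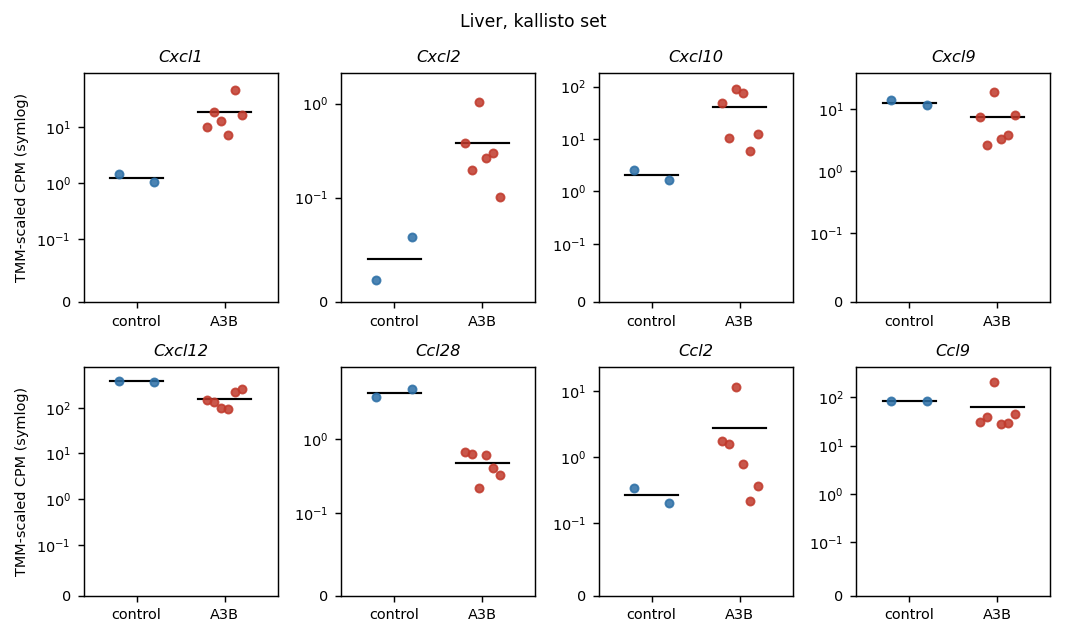
TMM-scaled CPM (symmetric log axis, linear below 0.1) of 8 members in the 2 control (blue) and 6 A3B (red) livers of the kallisto set, 1 point per mouse, lines at the group means. Cxcl1, Cxcl2 and Cxcl10 lie above both controls in all 6 A3B livers, Cxcl12 and Ccl28 below both, while Cxcl9, Ccl2 and Ccl9 overlap.

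The TPM-table livers came from other mice and had their own controls. Of the 58 members, 27 had a mean of at least 1 TPM and were tested with limma on log2(TPM + 1). None passed an adjusted p of 0.05, where 6.07% of all 11507 genes were called higher and 1.86% lower (7.93% in all), and 6 members had an unadjusted p under 0.05. With no filter on low values 1 member (Xcl1, lower) passed (0.282% of all genes), and after quantile normalization, which moved the median of all genes from 0.39 to 0.04, 1 (Ccl27a, lower; 5.87% of all genes). Without A3B liver 70 there were 3 (Ccl27a, Ccr3 and Cxcl12; 11.6% of all genes). The median of the members was 0.19 on the log2(TPM + 1) scale and that of all genes 0.39. A3B lay above all controls in 4 members (28.5% of all genes) and below in 2 (10.3%).

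Cxcl1 was again high, at 44.2, 967 and 422 TPM in A3B livers 23, 28 and 70 and 15.9, 31.4 and 15.1 TPM in control livers 11, 91 and 92. The groups did not overlap, but A3B liver 23 was close to the highest control. The log2 fold change was 3.68 ± 1.03 (limma adjusted p = 0.0638), and without A3B liver 23 it was 4.95 with an adjusted p of 0.0469. Ccl25, the ligand of CCR9, was at 44.1, 77.8 and 75.4 TPM in A3B and 36.5, 16.5 and 15.6 TPM in controls. Its groups did not overlap either (1.55 ± 0.43, limma adjusted p = 0.0617). Without control 11, which is labelled A3B + CAGS-rtTA, the limma adjusted p was 0.0314. Human APOBEC3B was at 0.144 TPM in control liver 11 and at 0.143 and 0.0928 TPM in control livers 91 and 92. Ccl27a, a ligand of CCR10 that shares exon bases with Il11ra1, was at 10.8, 7.87 and 17.7 TPM in A3B and 27.3, 31.8 and 28.4 TPM in controls (-1.27 ± 0.35, limma adjusted p = 0.0611; 0.0329 without A3B liver 70). Each A3B liver was below each control. Ccl2 was at 142 TPM in A3B liver 28 but at 1.29 and 1.004 TPM in livers 23 and 70, against 1.16 to 2.91 TPM in controls, and its log2 fold change of 1.62 became -0.41 without liver 28. The same liver, the one high in S100a8, S100a9 and monocyte genes, had 52.7 TPM of Cxcl2 against 3.05 TPM or less in every other liver of this set.

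Cxcl9 was at 1.38, 6.86 and 11.96 TPM in A3B livers 23, 28 and 70, below 36.7, 15.1 and 14.4 TPM in control livers 11, 91 and 92 (log2 fold change -1.76 ± 0.66, limma adjusted p = 0.120). Cxcl12 was at 76.6, 35.9 and 277 TPM against 353, 238 and 233 TPM (-1.55 ± 0.69, limma adjusted p = 0.166; 0.0292 without A3B liver 70). A3B liver 70 lay among the controls for Cxcl12. Ccl9 was at 80.7, 450 and 806 TPM against 633, 1180 and 942 TPM (-1.52 ± 0.79, limma adjusted p = 0.220). Cxcl16 at 4.52 to 39.9 TPM against 15.3 to 21.5 TPM and Ccl24 at 2.25 to 12.6 TPM against 5.02 to 13.4 TPM overlapped. Without A3B liver 23, the log2 fold change of Cxcl16 turned from -0.25 to 0.48.

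The 27 members tested in both liver sets shared neither mice nor controls. Their log2 fold changes had the same sign in 26 of 27 (96.3%), against 77.3% of all 10886 genes tested in both sets. The exception was Ccr2, the receptor of Ccl2, at 0.38 in the kallisto set and -0.48 in the TPM-table set. The 14 members higher in A3B in both sets included Cxcl1 (3.87 and 3.68), Cxcl2 (3.18 and 2.33), Ccl5 (2.08 and 1.88), Cxcr2 (2.18 and 1.25) and Cxcr4 (1.39 and 1.27). The 12 lower in both included Cxcl12 (-1.26 and -1.55), Cxcl9 (-0.78 and -1.76), Ccr3 (-1.79 and -1.28), the eosinophil receptor, and Cxcr3 (-0.90 and -0.63). Members share cells and regulators and are not independent, so these shares are a description. Some of the signs are weak: Ccl22 was at -0.01 in the kallisto set, and the signs of Ccl9 and Cxcl16 in that set turned with library totals, as did those of Ccl2 (-0.41 without liver 28) and Cxcl16 (0.48 without liver 23) in the TPM-table set.

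**Figure D3:**
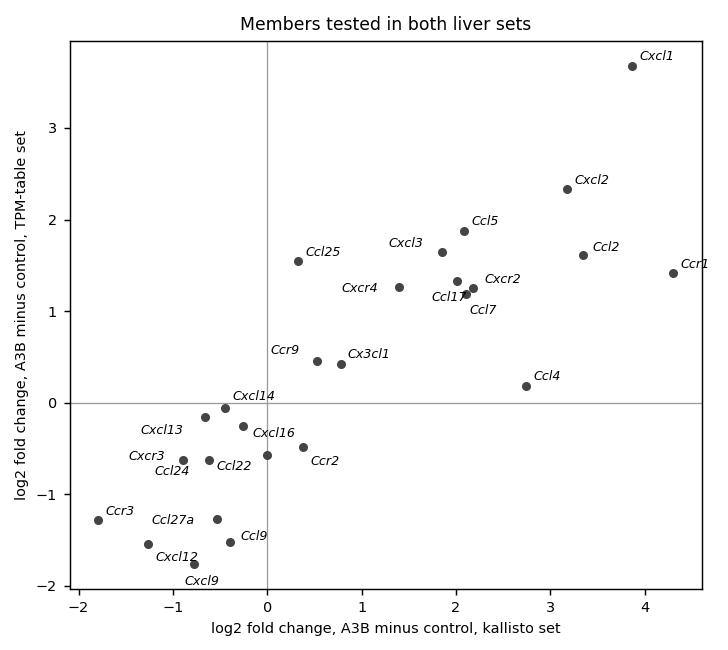
Log2 fold change (A3B minus control) of 26 members tested in both liver sets, kallisto set on the x axis and TPM-table set on the y axis, 1 point per gene. All points shown but Ccr2 lie to the lower left or the upper right of the origin, with Cxcl1 the highest on the y axis and Ccr1 farthest to the right.

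In A3B pancreas, 53 of the 59 members were tested, 9 rose and 3 fell (edgeR, adjusted p under 0.05). Among those that rose were Cxcl1, Cxcl16, Cxcl17, Ccl12, Ccl8, Ccl9, Ccl1 and Cx3cr1, and the 3 that fell were Ccl25, Ccl27a and Cxcl3. The share that rose, 17.0% of the members tested, was that of all 19142 genes (17.0%), and the share that fell, 5.66%, stood beside 14.9% of all genes (31.9% of all genes in either direction). Without control 168, 18 members were higher and 1 lower (15.5% and 12.7% of all genes), and without control 45, 5 were higher and 5 lower (10.2% and 8.75% of all genes). The median log2 fold change was 0.0016 for the members and 0.09 for all genes. In 13 members every A3B pancreas was above both controls (25.1% of all genes) and in 3 below both (18.9%).

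The scale matters in this tissue more than in liver. The 10 most abundant genes held 62.2% and 59.5% of the counts in control pancreases and 12.04% to 20.4% in A3B. Scaling by library totals in place of TMM moved the median of all genes from 0.09 to 2.29 on the log2 scale, and then 26 of 53 members were called higher and 0 lower, against 70.4% and 1.1% of all genes. With limma on log2(TPM + 1), 25 of 37 members were called higher and 0 lower, against 83.9% and 1.12% of all genes. DESeq2 called 18 higher and 4 lower, against 19.4% and 17.3% of all genes. On the TPM scale, the ligands summed to 711 to 1925 TPM in A3B pancreases and to 39.0 and 270 TPM in controls, and the receptors to 37.2 to 154 TPM against 0.914 and 26.7 TPM. Library totals and the TPM scale shift most genes upward, so a positive value there says little of a member that was already positive with TMM. With RLE size factors 11 of the 12 calls were kept, and that of Ccl9 was lost. Ccl25 turned positive with library totals (0.70) and on log2(TPM + 1) (0.20), and Ccl27a was called under neither. Cxcl3 was not called with library totals and was under the filter on the TPM scale.

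Cxcl1 had 0 counts in control pancreas 45 and 0.474 CPM in control 168, against 1.68, 3.28, 3.25, 1.43, 5.26 and 3.03 CPM in A3B pancreases 44, 53, 49, 125, 137 and 153. All A3B values were above both controls, and Cxcl1 rose by 3.49 ± 0.97 on the log2 scale (edgeR adjusted p = 0.0210). Its relatives gave other values. Cxcl2 was at 0.267 to 0.983 CPM in A3B and at 0 and 1.30 CPM in controls, and its log2 fold change was -0.20 ± 0.95 (edgeR adjusted p = 0.890). Cxcl3 was at 0.0510 to 0.105 CPM in A3B, from 6 to 14 counts a library. Its controls were at 0 counts in mouse 45 and 62 counts in mouse 168, so the groups overlapped and its call (-3.39 ± 0.93, edgeR adjusted p = 0.0187) rested on control 168, without which the sign turned (5.94).

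Cxcl16 and Cxcl17 were among the clearest differences. Cxcl16 has a membrane-bound form that acts as a scavenger receptor and a shed form that attracts CXCR6-bearing T cells. It was at 66.6, 90.5, 83.0, 47.6, 99.1 and 56.3 CPM in A3B pancreases 44, 53, 49, 125, 137 and 153, and at 7.01 and 17.8 CPM in controls 45 and 168 (log2 fold change 2.56 ± 0.43, edgeR adjusted p = 0.00192). Every A3B pancreas exceeded both controls by a wide margin. Cxcl17, a mucosal attractant of myeloid cells, was at 7.81, 7.78, 3.96, 2.34, 9.59 and 5.91 CPM in the same A3B pancreases and at 0.383 and 0.0237 CPM in controls (5.20 ± 0.995, edgeR adjusted p = 0.00385). The controls rested on 7 counts and 1 count. Cxcl16 shares exon bases with Zmynd15 on the opposite strand. Both calls held with RLE size factors, in DESeq2 and with each library left out in turn. The summed CPM of 4 ductal genes was 134 to 423 in A3B and 74.7 and 97.6 in controls, without overlap, and A3B pancreases 49 and 125, the lowest in Cxcl17, were the lowest in this sum. Of the 4, Krt19 was called higher (2.33, edgeR adjusted p = 0.0136). The part of ductal cells in these values was not tested.

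Of the 4 monocyte attractants, 2 rose in A3B pancreas and none fell (17.0% of all genes were called higher and 14.9% lower). In this comparison control 45 was low in the summed CPM of leukocyte and of monocyte genes. The monocyte sum was 125 to 342 CPM in A3B and 25.1 and 290 CPM in controls 45 and 168. Of the 4 genes in this sum, 1 was called higher and 0 lower. Ccr2, which is among them, was not called. The sum does not say how each of these genes differed. The part of leukocytes and monocytes in the chemokine values was not tested. Ccl12, a mouse ligand of CCR2, was at 2.13, 5.01, 6.83, 3.34, 6.29 and 4.87 CPM in A3B pancreases 44, 53, 49, 125, 137 and 153, and at 0.438 and 0.522 CPM in controls (log2 fold change 3.29 ± 0.56, edgeR adjusted p = 0.00188). Ccl8 was at 23.7 to 44.6 CPM in A3B (median 35.0) and at 1.37 and 11.5 CPM in controls (2.38 ± 0.68, edgeR adjusted p = 0.0264). Neither gene overlapped between the groups. Ccl2 was at 1.35 to 12.3 CPM in A3B (median 4.31) and at 0.0548 and 1.52 CPM in controls, where A3B pancreas 44 lay below control 168 (2.58 ± 1.17, edgeR adjusted p = 0.123). Ccr2, the receptor of Ccl2, was at 9.81 to 55.9 CPM against 2.14 and 11.5 CPM (1.83 ± 0.79, edgeR adjusted p = 0.109). Without control 168 both passed (adjusted p = 0.0384 and 0.0383), as they did in DESeq2 (0.0148 and 0.0193). Ccl7 was at 1.47 to 14.9 CPM against 0.274 and 2.63 CPM (edgeR adjusted p = 0.187).

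Ccl6 and Ccl9, myeloid ligands of CCR1, had the highest mean shares of ligand TPM in A3B pancreas. Ccl9 was at 115, 278, 127, 141, 184 and 89.1 CPM in A3B pancreases 44, 53, 49, 125, 137 and 153, and at 18.3 and 72.6 CPM in controls (log2 fold change 1.77 ± 0.59, edgeR adjusted p = 0.0442). Its groups did not overlap, but the call was the weakest of the 9: it was lost with RLE size factors (adjusted p = 0.0540) and without any one of A3B pancreases 44, 53, 49, 125 and 137 or control 45 (adjusted p 0.0547 to 0.189). Ccl6 was at 131 to 491 CPM in A3B and at 10.4 and 92.4 CPM in controls, also without overlap (2.33 ± 0.83, edgeR adjusted p = 0.0605; 0.00345 without control 168). On the TPM scale Ccl6 averaged 393 in A3B and 22.4 in controls, and Ccl9 229 and 19.1.

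Cx3cr1, the fractalkine receptor of patrolling monocytes and tissue macrophages, rose as well. It was at 16.6, 17.3, 26.4, 5.49, 11.1 and 18.1 CPM in A3B pancreases 44, 53, 49, 125, 137 and 153, and at 1.31 and 5.07 CPM in controls (log2 fold change 2.28 ± 0.67, edgeR adjusted p = 0.0291). A3B pancreas 125 was the lowest A3B value and still above control 168. Without control 45 the edgeR adjusted p was 0.139, and without A3B pancreas 44 it was 0.0510. Ccr1 was at 6.65 to 44.3 CPM against 1.70 and 7.35 CPM (2.38 ± 0.82, edgeR adjusted p = 0.0557), with A3B pancreas 125 below control 168. It passed without either of these libraries (adjusted p = 0.0236 and 0.0440) and in DESeq2 (0.00174). Of 8 macrophage marker genes 4 were called higher (17.0% of all genes) and 0 lower, with Cd68 at 4.02 and Adgre1 at 3.13 on the log2 scale (edgeR adjusted p = 0.000210 and 0.000905). Their summed CPM was 967 to 2615 in A3B and 218 and 1255 in controls, most of it Lyz2 (728 to 2118 CPM against 185 and 1156 CPM), which was not called. Of 5 fibroblast genes 4 were called higher, with summed CPM of 1858 to 2999 against 489 and 783. Their part in the chemokine values was not tested.

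In the class of T cell subset and mucosal ligands, 1 of 7 tested rose and 2 fell, beside 17.0% and 14.9% of all genes. Ccl1, a ligand of CCR8, had 0 counts in both controls. It had 54, 12, 74, 7, 40 and 20 counts in A3B pancreases 44, 53, 49, 125, 137 and 153. Against a floor of 3 counts per control library, its mean CPM was at least 2.45-fold higher in A3B (edgeR adjusted p = 0.0304). The call was lost without A3B pancreas 44 or 137 and without either control (adjusted p 0.0506 to 0.125). Ccl27a was at 1.25, 2.09, 1.94, 2.65, 1.17 and 2.43 CPM in the A3B pancreases and at 17.6 and 9.44 CPM in controls (log2 fold change -2.81 ± 0.37, edgeR adjusted p = 0.000502). On the TPM scale, however, Ccl27a averaged 9.59 in A3B and 10.2 in controls. Ccl25 was at 1.002 to 3.35 CPM in A3B and at 7.07 and 6.54 CPM in controls (-1.56 ± 0.45, edgeR adjusted p = 0.0238; 0.0971 and 0.0633 without control 45 and 168). It shares exon bases with Elavl1 on the opposite strand.

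Among the homeostatic lymphoid members, Ccl21a, made by lymphatic endothelium, was at 14.1 and 69.6 CPM in control pancreases 45 and 168, and at 74.4 CPM in A3B pancreas 49 against 9.14 to 25.6 CPM in the other 5. Ccr7, the receptor of Ccl19 and Ccl21, was at 0.0548 and 14.3 CPM in the controls and at 15.2 CPM in A3B pancreas 49, with 0.571 to 2.69 CPM in the others. Cxcl13, the B cell attractant, was at 1.81 and 45.2 CPM in controls and 0.845 to 12.7 CPM in A3B. For Ccl21a and Ccr7, the high libraries, control 168 and A3B 49, were also those with the highest summed level of B cell genes; the part of these cells in the values was not tested. Of the 9 members of this class, 8 were tested and none was called. The eotaxin Ccl11 was at 8.45 to 17.3 CPM against 14.7 and 19.5 CPM (log2 fold change -0.39 ± 0.26, edgeR adjusted p = 0.278), but its log2 fold change was 1.76 with library totals (adjusted p = 0.00747). Cxcl10 was at 2.50 to 15.3 CPM against 3.34 and 1.23 CPM (1.42 ± 0.72, edgeR adjusted p = 0.160).

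**Figure D4:**
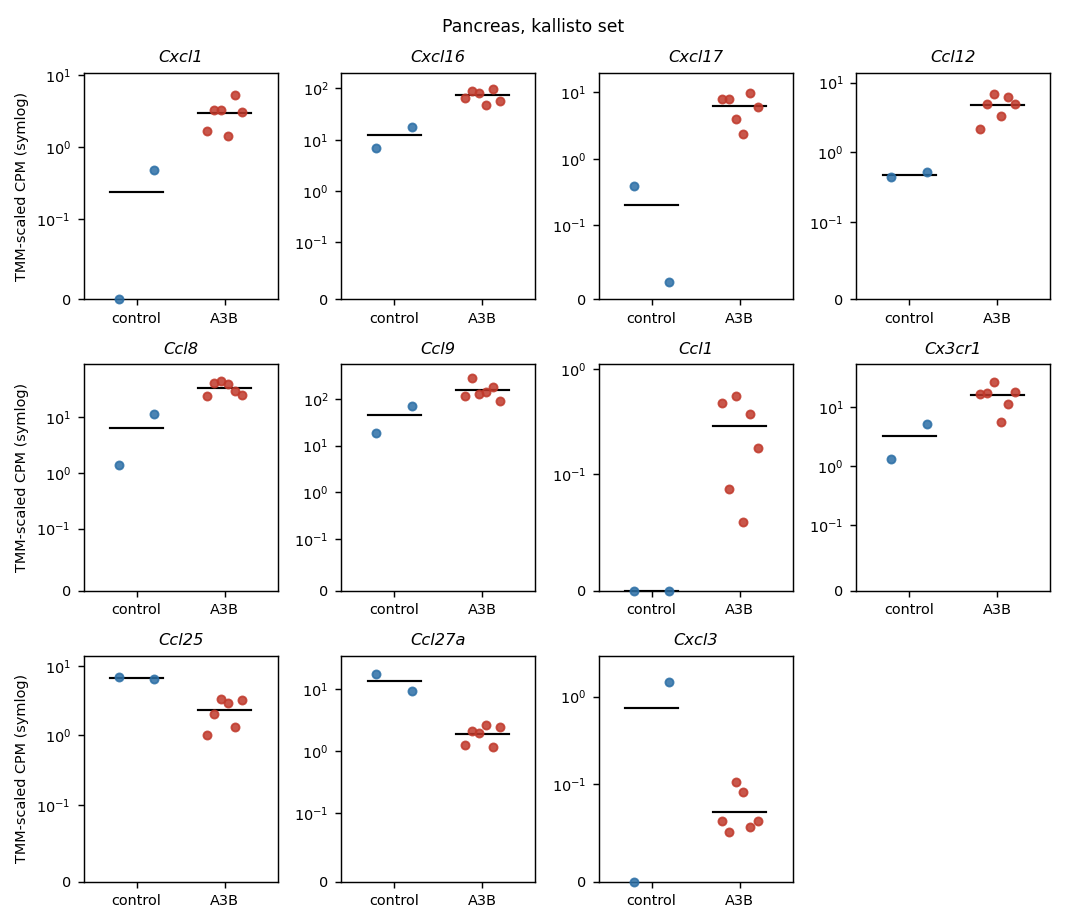
TMM-scaled CPM (symmetric log axis, linear below 0.1) of 11 members called in pancreas, in the 2 control (blue) and 6 A3B (red) pancreases of the kallisto set, 1 point per mouse, lines at the group means. The groups are separate in every panel but Cxcl3, where control 45 is at 0 and control 168 at 1.47 CPM.

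In lung, 33 of 58 members were tested with limma on log2(TPM + 1), Ccl9 rose, and Ccr2, Cx3cr1 and Cxcl14 fell. That is 1 of 33 higher (16.1% of all 13651 genes) and 3 of 33 lower (20.8% of all genes), with 36.8% of all genes called in either direction. Without control 87, 9 members passed (30.1% of all genes), and with no filter on low values 7 (25.1% of all genes). The median of the members was -0.43 and that of all genes -0.06. A3B lay above all controls in 4 members (23.3% of all genes) and below in 7 (30.6%).

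Ccl9 was at 251, 345 and 273 TPM in A3B lungs 69, 70 and 74 and at 141, 141 and 162 TPM in control lungs 87, 88 and 91 (log2 fold change 0.95 ± 0.14, limma adjusted p = 0.00542). Ccr2, the receptor of inflammatory monocytes, was at 29.6, 44.3 and 52.6 TPM in A3B and at 101.2, 224 and 174 TPM in controls (-1.92 ± 0.34, limma adjusted p = 0.00919). Cx3cr1, on patrolling monocytes, was at 0.839, 1.67 and 1.88 TPM and at 4.02, 12.3 and 9.28 TPM in controls (-1.87 ± 0.38, limma adjusted p = 0.0139; 0.05002 without control 91). None of the 3 genes overlapped between the groups. Of 4 monocyte marker genes, Ccr2 itself and Plac8 (-1.42, limma adjusted p = 0.0201) were called lower, Ly6c2 was at 0.04 (limma adjusted p = 0.950) and Chil3 at 0.80 (limma adjusted p = 0.102). Their summed TPM, 1046 to 1250 in A3B and 674 to 1011 in controls, was mostly Chil3, at 898 to 1156 TPM in A3B and 340 to 846 TPM in controls. Of 8 macrophage genes, Marco was called higher (1.40, limma adjusted p = 0.00535) and Lyz2 lower (-0.51, limma adjusted p = 0.00729). Their summed TPM, 934 to 973 in A3B and 1180 to 1278 in controls, was mostly Lyz2, at 692 to 720 TPM in A3B and 954 to 1048 TPM in controls. T cell genes, 6 of which were in the table, summed to 108 to 143 TPM in A3B and 145 to 249 TPM in controls, without overlap. The sum was mostly Cd2, at 68.6 to 84.5 TPM in A3B and 102 to 142 TPM in controls, which was called lower (-0.60, limma adjusted p = 0.0217). Cd3d and Cd3g were also lower without overlap but did not pass (limma adjusted p = 0.151 and 0.0874). Cd3e (-0.17), Cd4 (0.10) and Cd8a (-0.50) overlapped between the groups. The part of these cells in the chemokine values was not tested. For Ccl9, control lung 88, high in hepatocyte genes, was at 141 TPM, as was control lung 87, and without A3B lung 70 its log2 fold change was 0.82 (limma adjusted p = 0.0162).

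Cxcl14, an epithelial and stromal ligand made constitutively, was at 88.4, 79.7 and 132 TPM in A3B lungs 69, 70 and 74 and 138, 153 and 161 TPM in controls (log2 fold change -0.62 ± 0.19, limma adjusted p = 0.0447). The gap between the groups was small, and the call was lost without any library but A3B lung 74 (adjusted p 0.0694 to 0.126). Cxcl15 was at 628 to 673 TPM in A3B and 697 to 1055 TPM in controls, without overlap (-0.48 ± 0.17, limma adjusted p = 0.0631; 0.0117 without control 87). The classes' other leading members overlapped: Cxcl16 was at 130 to 142 TPM against 125 to 141 TPM, Cxcr4 at 114 to 158 TPM against 135 to 245 TPM, Ccl22 at 29.1 to 58.1 TPM against 40.1 to 121 TPM, Cxcr3 at 10.3 to 11.1 TPM against 7.97 to 15.9 TPM (its log2 fold change of -0.13 was 0.07 without control 91), and Ccl11 at 8.52 to 15.3 TPM against 8.18 to 10.6 TPM (0.13, and -0.10 without A3B lung 70). Without control 87, Cxcr4 and Ccl22 passed (limma adjusted p = 0.0476 and 0.0386). Ccl27a was at 29.0 to 41.0 TPM against 38.9 to 61.7 TPM (-0.55 ± 0.20, limma adjusted p = 0.0687; 0.0247 without control 88).

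**Figure D5:**
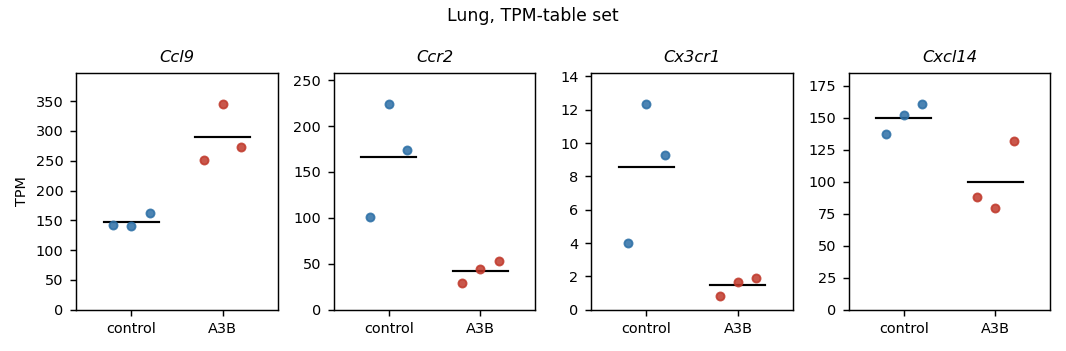
TPM (linear axis from 0) of the 4 members called in lung, in 3 control (blue) and 3 A3B (red) lungs of the TPM-table set, 1 point per mouse, lines at the group means. Ccl9 is above all controls in A3B, and Ccr2, Cx3cr1 and Cxcl14 are below all controls.

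Whether a member's A3B effect differed between tissues was tested directly. Between pancreas and liver of the kallisto set, 0 of 53 members passed (edgeR interaction term, adjusted p under 0.05; 6.87% of all genes had a positive and 5.02% a negative difference), 12 had an unadjusted p under 0.05, and DESeq2 called 5 (20.3% of all genes). Library totals moved the median difference of all genes from 0.03 to 1.59, and 10 members were then called, beside 40.5% of all genes. Without A3B liver 49, 5 passed (Ccl9, Cx3cr1, Cxcl14 and Cxcl16 among them; 17.1% of all genes), and without A3B liver 48, 2 (Cxcl16 and Cxcl3; 13.5%). Without control pancreas 168, 5 passed (Ccl28, Cxcl9, Cxcr3 and Cxcr6 among them; 8.82% of all genes), and without control pancreas 45, 1 (Cxcl3; 3.39%). The smallest p among members whose groups were separate in pancreas was that of Cxcl16, whose log2 fold change was larger in pancreas by 2.99 ± 1.03 (edgeR adjusted p = 0.0686). Pancreas and liver came largely from the same mice, and with mouse as a block 2 members were called, Cxcl16 among them (8.1% of all genes). Between liver and lung of the TPM-table set, 1 of 36 members passed, where 8.81% of all genes had a positive difference. It was Ccl25, with log2 fold changes of 1.55 in liver and -0.44 in lung (difference 1.99 ± 0.49, limma adjusted p = 0.0292). Ccl25 was at 22.2 to 27.7 TPM in A3B lungs and 24.5 to 39.5 TPM in control lungs. The call was lost without any of 7 libraries (adjusted p 0.0533 to 0.0787): control livers 91 and 92, control lungs 87 and 91, and A3B lungs 69, 70 and 74. With mouse as a block, Cxcr4 was called as well (19.3% of all genes). With a pseudocount of 0.1 TPM 2 members were called (8.91% of all genes), with no filter 4 (9.4%) and with quantile normalization 2 (6.24%). Without A3B liver 23, 5 members passed (Ccl25, Ccl9, Ccr2, Cxcl1 and Cxcr4; 11.3% of all genes), and without A3B liver 70, 3 (Ccl25, Ccl9 and Cxcr4; 22.7%).

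Genes that work with chemokines were counted from 5 lists of 36 genes. In the kallisto liver 0 of 33 tested passed, beside 3.66% of all genes in either direction. In the TPM-table liver 0 of 25 passed, beside 7.93% of all genes. In pancreas 11 of 36 (30.6%) were higher and 0 lower (edgeR), beside 17.0% of all genes higher and 14.9% lower. In lung 7 of 31 (22.6%) were higher and 0 lower (limma), beside 16.1% of all genes higher and 20.8% lower. The pancreas genes were 4 of signal transduction downstream of the receptors (Gnai2, Arrb2, Pik3cg, Vav1), the ligand sheddases Adam10 and Adam17, and 5 known inducers, with Irf7 the clearest of these (log2 fold change 4.53, edgeR adjusted p = 0.000153), beside Nfkb1, Rela, Nfkbia and Ifnb1, whose controls both had 0 counts. Irf7, an interferon-induced transcription factor, was also higher in lung (2.28, limma adjusted p = 0.00315), together with Tnfaip3 and Nfkbia, targets and brakes of NF-κB. The remaining lung genes were Ppbp, Ackr3, Gnai3 and Grk3.

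Several members could not be read in one of the sets. In the TPM table Ccl21a, Ccl21b, Ccl21c, Ccl27b, Ccl6, Cxcl10, Cxcl11, Cxcl17 and Cxcr6 were listed at 0 in all 12 libraries, as were 18.5% of all rows, among them genes such as Ccl6 that reached 775 TPM in the kallisto set. Of these 9 members, 6 overlap another annotated gene on the chromosome, against 11 of the other 49. Exon bases are shared with another gene by 2 of the 9 and by 7 of the 49. Whether the overlap has a part in the zeros was not tested, and a 0 there says nothing of the gene's expression. Ccl21a, Ccl21b and Ccl21c, and Ccl27a, Ccl27b and Ccl27, are near-identical copies, so the split of reads between them is uncertain, and the gene models of Ccl19 cover more than 1 copy. In the kallisto set Cxcr1 and Ccl21c had 0 counts in every pancreas library, and Ccl26 and Ccl27b had 0 in every liver.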

How the data were processed

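The kallisto set holds estimated counts and TPM per transcript, which the authors made with kallisto v0.46.1 against mm10. The TPM table holds values that the authors computed per gene from a read-count matrix, and its columns name deduplicated alignments. The submitters' processing notes name GRCm38 and mm10. The deposited estimated counts were summed per GENCODE M21 gene symbol (116728 of 119414 transcripts matched) and rounded. They were tested with edgeR 4.0.16 (R 4.3.3; TMM factors, its expression filter, quasi-likelihood test), 1 fit per tissue, or over both tissues of a set with an interaction term. Deposited TPM values were tested with limma 3.58.1 on log2(TPM + 1) after leaving out genes that averaged under 1 TPM in the tissue; a fold change on that scale understates low genes, and the depth behind the TPM table is unknown. Both used Benjamini-Hochberg adjustment over all genes tested. Precision in the control groups of the kallisto set is limited by 2 samples. The TPM table also held 26 rows whose names had become dates and 4 rows with repeated names, and the latter were left out.

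The members and lists were chosen with earlier results of these data known. Named were, per comparison, members with an adjusted p under 0.05 (at most 12 per direction, and the 3 smallest p where fewer than 3 passed), the member with the highest mean TPM of each class, members called in an interaction and those listed at 0. Cxcl9, Cxcl2 and Ccl2 in liver, Ccr1, Ccl2 and Ccr2 in pancreas, Ccl27a in lung, and members given only as values were chosen after their values were seen. A member that was tested and is included in the counts is not reported here by name. Alternatives were DESeq2 1.42.0, library totals, RLE factors, no filter, log2(TPM + 1) for the kallisto set, another pseudocount (0.1), quantile normalization, a mouse block and leaving out each library. Liver and pancreas of the kallisto set pair by mouse, as the titles give the same mouse numbers; deviations from the group means correlated at -0.08 to 0.43 over 9065 genes. Scripts were tested on simulated data. Values after ± are standard errors of the fits, which take in the spread between mice, while the floor of 3 counts covers counting error only.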

Additional observations from a re-analysis of the deposited data

Results flagged for a closer look

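In 30 groups of 6 A3B libraries of named members, 10 had 1 library apart from the rest (Dixon's test at 95%). For independent groups of normally distributed values the test flags about 1 in 20. These groups reuse the same libraries, and the CPM values were not put on a log scale. The count of 10 therefore cannot be set against that rate. A3B liver 49 was high for Ccl9 (212 CPM, next 44.4), Cxcl16 (28.7, next 9.32), Ccl2 (11.7, next 1.77), Cxcl9 (19.0, next 8.16) and Cxcl2 (1.05, next 0.378). A3B liver 48 was high for Cxcl1 (44.8 CPM, next 18.6) and Ccl27a (13.6, next 3.43). A3B pancreas 49 was high for Ccl21a (74.4 CPM, next 25.6), Cxcl10 (15.3, next 5.47) and Ccr2 (55.9, next 25.5). The fold change of Ccl25 in the TPM-table set differed between liver and lung by a limma interaction term (1.99 on the log2 scale, adjusted p = 0.0292).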

How the results depend on the processing

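The number of members called in the kallisto liver, 2, was 9 with DESeq2, 1 with limma on log2(TPM + 1), where Ccl28 was under the filter, and 0 to 3 with 1 library left out. In pancreas, 12 became 22 with DESeq2, 26 with library totals and 25 with limma on log2(TPM + 1), and 9 to 19 with 1 library left out. In the TPM-table liver, 0 became 1 with no filter and 1 with quantile normalization, and 0 to 3 with 1 library left out. In lung, 4 became 7 with no filter, and 3 to 9 with 1 library left out. Between pancreas and liver, 0 became 10 with library totals, 5 with DESeq2 and 2 with the replicate block (mouse), and 0 to 5 with 1 library left out. Between liver and lung, 1 became 2 with a pseudocount of 0.1 TPM, 4 with no filter, 2 with quantile normalization and 2 with the replicate block (mouse), and 0 to 5 with 1 library left out.

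Signs turned with library totals for Ccl9 (0.18) and Cxcl16 (0.32) in the kallisto liver and for Ccl25 (0.70), Ccl21a (1.31) and Ccl11 (1.76) in pancreas, and with limma on log2(TPM + 1) for Ccl25 (0.20), Ccl21a (1.503) and Ccl11 (1.71) in pancreas. With 1 library left out, log2 fold changes ranged from -4.32 to 5.94 for Cxcl3 and -1.41 to 0.90 for Ccl21a in pancreas, from -0.41 to 2.67 for Ccl2 and -0.96 to 0.48 for Cxcl16 in the TPM-table liver, and from -0.38 to 0.0727 for Cxcr3 and -0.10 to 0.28 for Ccl11 in lung. The cause was not tested. Over the fold changes of the named members, leaving out 1 library kept direction and call in 317 cases, lost the call in 34 and gained it in 15, and the other alternatives kept both in 178, lost the call in 6 and gained it in 19. The block changed no other call. The depth behind the TPM table is unknown. The kallisto comparisons rest on 2 controls, and leaving out either leaves a lone control that is assumed to vary like the A3B samples.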
